A study of Rattus norvegicus with 24 samples.

Results

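The dorsal raphe of 2 rat lines was compared gene by gene. The high-responder and low-responder lines were selectively bred for opposite responses to novelty, and 6 poly-A RNA libraries of the dorsal raphe were sequenced for each. These 12 libraries were taken, by the line and region in their titles, out of 24 in the series. The other 12 hold the amygdala of the same lines. All tissue came from 60-day-old rats, and the labels name no treatment, so as labelled the groups differ by line alone. Each behaviour is represented by 1 bred line, and a difference between the lines therefore cannot be tied to the behaviour. The sources used here do not say whether the 6 libraries of a line came from 6 animals, so the p-values measure the spread between libraries, which may be partly technical.

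Much of the serotonin of the forebrain comes from neurons of the dorsal raphe, in the midbrain. Besides serotonin neurons it holds GABA, glutamate and dopamine neurons and glia, and a tissue sample mixes them all. In such a sample, fewer cells of a type and less RNA per cell cannot be told apart. Breeding for a behaviour changes allele frequencies both at loci that bear on it and, by drift, at loci that do not.

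Genes are given by Ensembl ID because the count tables hold no symbols, and the RefSeq gene table used here (assembly GRCr8) matched 0 of the 32662 IDs. For this reason no gene function, serotonin marker, cell type marker or promoter sequence is given, and the label of the tissue could not be checked against its markers. The contrast with the amygdala was used only to compare the libraries. Its gene set was chosen from these same libraries, so it cannot check the label. A set of 72 IDs was more than 16-fold higher in dorsal raphe than in amygdala, and its summed level was 1328 to 2718 CPM (counts scaled to a common library size, here over all 24 libraries) in high-responder and 2155 to 3013 CPM in low-responder dorsal raphe. High-responder library 1 held the 1328 and stood below the other 11. None of the 72 passed the edgeR test between the lines described below, against 12 (0.0834%) of the 14390 genes tested. At that share a set of 72 would rarely hold a call, so nothing is read from the count. Before adjustment 4 of the 72 (5.56%) fell under a p of 0.05, 2 higher and 2 lower in high-responder rats, against 8.54% of all genes tested. The median log2 difference of the 72 was 0.05, or 0.08 without high-responder library 1, against -0.01 over all genes tested.

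Library totals ran from 9232983 to 19350143 counts in high-responder and from 9562311 to 13715961 counts in low-responder rats (exact permutation p = 0.355, two-sided as are all such tests here, 6 libraries a line). The share of counts in the top 10 genes was 15% in low-responder library 5 and 7.59% to 12.3% in the other 11 libraries.

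The libraries carry running numbers in their table headers. In both lines the dorsal raphe numbers break off, amygdala libraries of the same line fill the gap, and the raphe numbers resume. High-responder libraries 1 to 3 and low-responder libraries 1 to 4 come before the break and are called early here. High-responder libraries 4 to 6 and low-responder libraries 5 and 6 are called late, with high-responder library 6 numbered apart from 4 and 5. What the numbers record is not given in the sources used here. All low-responder numbers precede all high-responder numbers, so an effect that ran along the whole numbering could not be told apart from the line.

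The first principal component of the 12 libraries held 57.7% of the variance and did not part the lines. High-responder libraries spread from -30 to 46.8 on it and low-responder libraries from -36.6 to 62.6 (exact permutation p = 0.786). High-responder libraries 4 and 5 and low-responder library 5 lay at its upper end, at 40.7 or more. Late libraries lay above early ones except that high-responder library 6, at 0.5, was below low-responder library 2, at 2.7. The second component held 8.79% of the variance and nearly parted the lines. High-responder libraries stood at 10.5 ± 9.78 and low-responder libraries at -10.5 ± 5.69 on it (SD, n = 6 each, exact permutation p = 0.00433, 0.013 after Benjamini-Hochberg adjustment over 3 components). Only high-responder library 4, at -3.9, and low-responder library 5, at -1.6, overlapped. The third component did not separate the lines (exact p = 0.31).

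**Figure D1:**
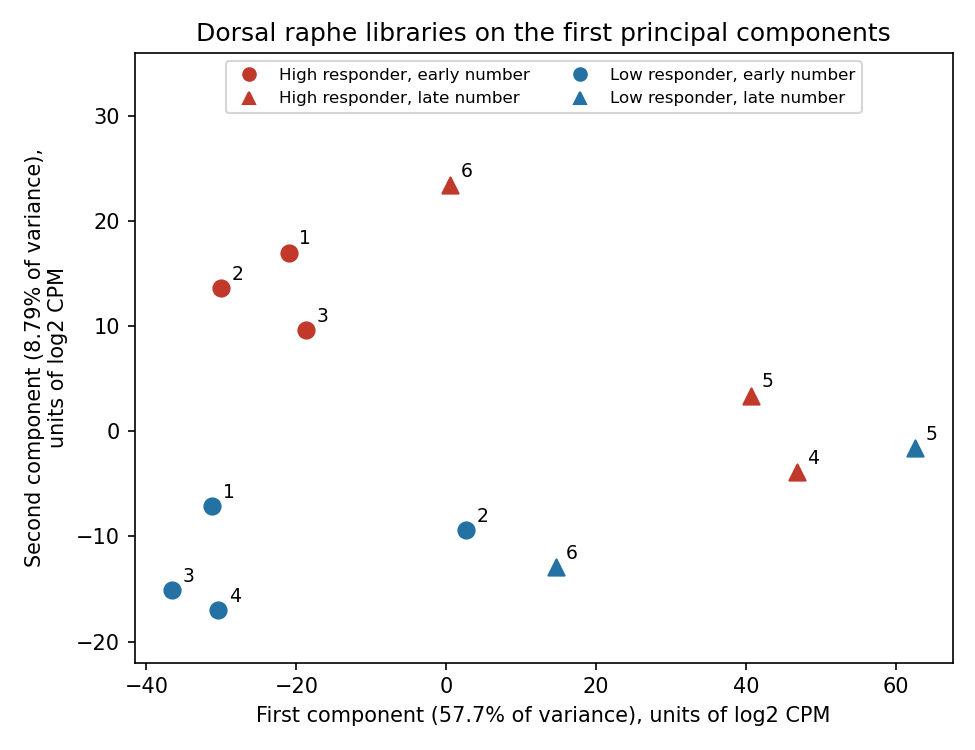
Each of the 12 dorsal raphe libraries on the first (x axis, 57.7% of variance) and the second principal component (y axis, 8.79%), both in units of log2 CPM, with the replicate number beside each point. Colour gives the line and shape the early or late number; libraries of both lines spread along x, while on y the high-responder libraries lie above the low-responder ones except for high-responder library 4 and low-responder library 5.

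Because the first component runs with the early and late numbers, the line difference was tested with a term for them. With edgeR's quasi-likelihood test, 12 of 14390 genes (0.0834%) passed a Benjamini-Hochberg adjusted p of 0.05, 6 higher (0.0417%) and 6 lower (0.0417%) in high-responder rats. The differences ranged in size from 0.43 to 5.67 on the log2 scale, and the fold groups given next are cut-offs set here. More than 4-fold differences were called for 5 genes, 3 higher and 2 lower, and in each of these the lower line stood at a mean of under 3 CPM. Another 2 genes lay between 2-fold and 4-fold, and 5 genes below 2-fold. In all 12 the 6 libraries of one line lay beyond the 6 of the other, a property of 78 genes (0.542%) among all tested, 38 higher (0.264%) and 40 lower (0.278%).

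**Figure D2:**
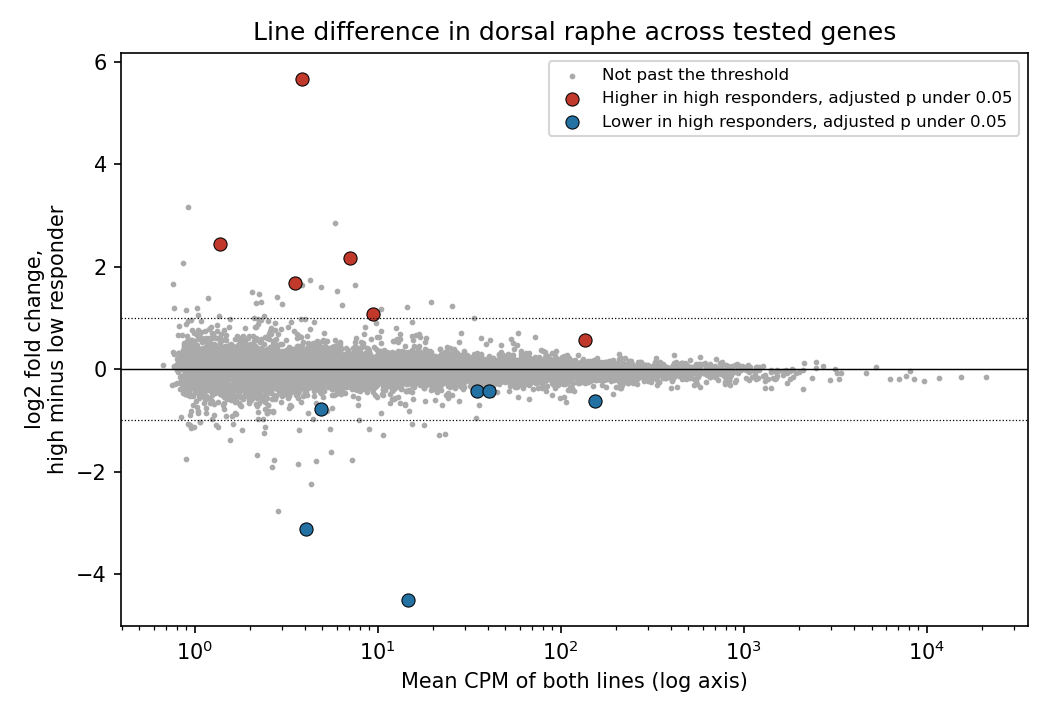
Each point is 1 of the 14390 genes tested in dorsal raphe, at its mean CPM over both lines (x axis, log scale) and its log2 fold change, high minus low responder (y axis); dotted lines mark 2-fold differences. The 12 genes past the threshold are coloured; the cloud narrows toward higher levels, and the called gene with the largest negative difference, ENSRNOG00000028041, has means of 1.26 and 28 CPM in the high- and low-responder lines.

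ENSRNOG00000061943 had the largest difference. Its level in the 6 high-responder libraries, in order of replicate, was 3.32, 6.11, 3.38, 13, 12.6 and 7.48 CPM. In the low-responder libraries it was 0.143, 0.179, 0, 0, 0.25 and 0.106 CPM. It was thus readily counted in every library of one line, with 37 to 235 counts, and close to absent in every library of the other, with 0 to 3 counts each and 8 counts over all 6. The log2 fold change was 5.67 (SE 0.39, 95% interval 4.82 to 6.52, edgeR adjusted p = 3.5e-05). Within the high-responder line all 3 late libraries lay above all 3 early ones, and the late minus early difference was a log2 value of 1.35 (SE 0.30, adjusted p = 0.0039 by edgeR).

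ENSRNOG00000054553 was also higher in high-responder rats, but at a lower level. It stood at 1.97, 2.14, 1.59, 2.26, 3.13 and 3.09 CPM in the high-responder libraries. The low-responder libraries held 0.57, 0.269, 0, 0.347, 0.417 and 0.745 CPM. The lines did not overlap, although the low-responder values rest on 0 to 8 counts a library. The log2 fold change was 2.45 (SE 0.34, 95% interval 1.71 to 3.18, edgeR adjusted p = 0.0144). Leaving out high-responder library 1, high-responder library 2, low-responder library 2 or low-responder library 4 lost this call, with adjusted p of 0.0503 to 0.061, and it was lost without both libraries that stand apart (high-responder 1 and low-responder 5), at an adjusted p of 0.0787.

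ENSRNOG00000028041 was lower in high-responder rats. Its high-responder values were narrow, at 1.34, 0.884, 1.24, 1.27, 1.79 and 1.03 CPM. The low-responder libraries held 13.4, 21.6, 13.8, 12.2, 80.3 and 26.9 CPM. The low-responder line was therefore higher in each library, and its spread came mainly from library 5, the library with the 15% share of counts in the top 10 genes; whether that share has a part in the 80.3 CPM was not tested. The log2 fold change was -4.50 (SE 0.37, 95% interval -5.29 to -3.71, edgeR adjusted p = 0.000122), and it was -3.93 (adjusted p = 4.64e-06) without library 5. Both late low-responder libraries lay above the 4 early ones, whereas early and late high-responder libraries overlapped. The line difference was -3.69 (SE 0.27) in early and -5.33 (SE 0.52) in late libraries.

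ENSRNOG00000054418 was lower in high-responder rats as well. It stood at 1.17, 0.81, 0.746, 0.552, 0.112 and 0.774 CPM in the high-responder libraries. It stood at 9.91, 6.82, 12, 9.47, 1.59 and 4.57 CPM in the low-responder libraries. Here the late low-responder libraries, 5 and 6, were the lowest of their line, yet both still exceeded the highest high-responder value of 1.17 CPM. The log2 fold change was -3.13 (SE 0.33, 95% interval -3.85 to -2.41, edgeR adjusted p = 0.00106). The late minus early difference was -1.38 (SE 0.34, adjusted p = 0.00654), opposite in sign to that of ENSRNOG00000061943 and to the 1.37 (SE 0.34, adjusted p = 0.00592) of ENSRNOG00000028041.

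**Figure D3:**
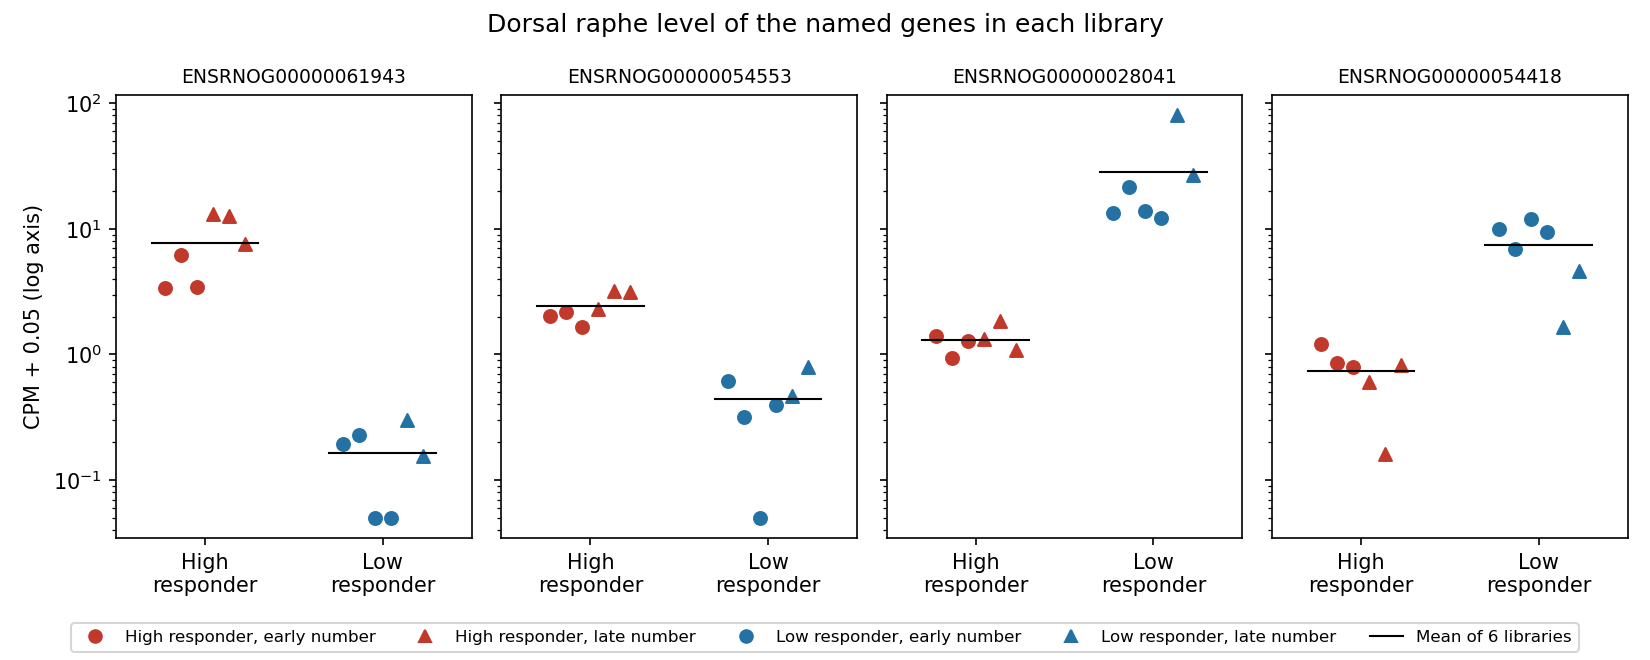
CPM + 0.05 on a log axis for the 4 genes given by ID, 1 point per dorsal raphe library, with circles for early and triangles for late numbers and a bar at the mean of 6 libraries. In none of the 4 do the lines overlap; ENSRNOG00000028041 reaches 80.3 CPM in low-responder library 5, and ENSRNOG00000054418 is lowest among low-responder libraries at 1.59 CPM in the same library.

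The other 8 called genes are described without their IDs. Of these, 4 were higher in high-responder rats, with log2 fold changes of 0.56 to 2.18, and 4 were lower, by 0.43 to 0.78. The one with a log2 fold change of 2.18 (SE 0.19) ranged from 6.1 to 18.4 CPM in high-responder and from 1.07 to 3.59 CPM in low-responder libraries. The next, at 1.69 (SE 0.17), ranged from 3.7 to 6.22 CPM against 1.17 to 2.17 CPM. Unlike these, the most abundant called genes differed by less than 2-fold. A gene at 161 ± 23.6 CPM (SD, n = 6) against 109 ± 7.42 CPM in the low-responder line had a log2 fold change of 0.56 (SE 0.09), and a gene at 123 ± 5.82 against 186 ± 28.6 CPM fell by 0.61 (SE 0.08). Their libraries did not overlap either, with 134 to 192 against 100 to 118 CPM for the former and 116 to 133 against 158 to 219 CPM for the latter.

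How far the list of 12 holds was uneven. Calls for 5 of the 12 genes passed in each of the 12 fits that left out 1 library, among them ENSRNOG00000061943, ENSRNOG00000028041 and ENSRNOG00000054418. Another 5 passed in 6 or fewer of those fits, and each of these had a log2 fold change of 1.08 or less in size. The number of calls was 6 without high-responder library 2 or low-responder library 2, and 7 when the library left out was high-responder 1, 3 or 5 or low-responder 3 or 4. It was 15 without low-responder library 5, 16 without both high-responder library 1 and low-responder library 5 (6 of the 12 among them), and 18 without high-responder library 4. Other tools called more, and all 12 were among their calls. DESeq2 called 85 genes, 27 higher and 58 lower, limma voom with quality weights called 114, 42 higher and 72 lower, and 56 genes were called by both. All 56 had an unadjusted edgeR p under 0.05, and 14 differed by more than 2-fold.

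Before adjustment 1229 genes (8.54%) fell under a p of 0.05, with 508 (3.53%) standing higher and 721 (5.01%) lower in high-responder rats. The next 18 genes by p whose lines did not overlap, with at least 1 CPM in the higher line, had adjusted p of 0.0691 to 0.21. Of these, 4 stood higher and 14 lower in high-responder libraries. Their log2 differences were small, with a median size of 0.38 and a range of 0.21 to 1.07. Over all genes tested 66 had a fitted difference of more than 2-fold, of which 7 were called.

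The term for early and late numbers narrowed the errors. Without it 9 genes passed (0.0625%) and 726 (5.05%) fell under 0.05 before adjustment; all 9 were among the 12, so the term added 3 calls and lost 0. The median standard error of the log2 fold change was 0.107 with the term and 0.138 without it, and it was smaller with the term for 90.8% of genes. For ENSRNOG00000028041 the standard error was 0.37 with and 0.52 without the term, at log2 fold changes of -4.50 and -4.48. Of the 12 called genes, 5 also differed between late and early libraries (4 higher and 1 lower in late ones), against 48.1% of all genes tested, and 7 did not pass that test.

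Whether the line difference itself depended on the early or late numbers was tested by an interaction term. With edgeR 0 of 14390 genes (0%) passed, and 311 (2.16%) fell under 0.05 before adjustment. DESeq2 and voom were not applied to this term. Without low-responder library 6, which leaves library 5 as the only late low-responder library, 6 genes passed. Among the 12 called genes only ENSRNOG00000028041 fell under 0.05 before adjustment. Its line difference was further from 0 in late libraries by a log2 value of -1.62 (SE 0.65, adjusted p = 1 by edgeR). For ENSRNOG00000061943 the line difference was 5.54 (SE 0.55) in early and 5.81 (SE 0.51) in late libraries. The interaction was 0.29 (unadjusted p = 0.869 by edgeR). Its SE of 1.75 was derived from the F statistic and is far above the early and late SEs, so no bound on a change is drawn from it. In late libraries alone, 3 against 2, edgeR called 0 genes, with 237 at an unadjusted p under 0.05. Early libraries alone, 3 against 4, gave 16 calls, of which 7 were among the 12.

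The same line comparison in the amygdala shares no library with that in the dorsal raphe, though rats may be shared, on which the labels are silent. CPM was scaled within each region, so levels set across regions are approximate. With the same model 2 of 14265 genes (0.014%) passed there. Of the 12 genes called in dorsal raphe, 11 were tested in the amygdala, and 0 passed there with edgeR, while 7 reached an unadjusted p of less than 0.05, against 1203 (8.43%) of all genes tested in that region. The sign matched between regions for 11 of 11, against 59.4% of the 13820 genes tested in both. The fitted difference was smaller in the amygdala for 11 of 11, but these genes were chosen by their dorsal raphe difference, which by itself favours a smaller value in the other region, so nothing is read from that count. ENSRNOG00000061943 had a log2 fold change of 1.96 in the amygdala (SE 0.80, edgeR adjusted p = 0.537). Its high-responder amygdala level of 7.51 ± 3.39 CPM was close to the 7.65 ± 4.30 CPM in dorsal raphe, and the low-responder amygdala level was 1.89 ± 3.10 CPM (SD, n = 6 each). That mean came from low-responder amygdala libraries 1 (7.57 CPM) and 6 (3.48 CPM), both inside the span of the high-responder libraries (2.96 to 13.2 CPM). The other 4 held at most 0.153 CPM, and the median of 0.12 CPM was like that in dorsal raphe (0.124 CPM). ENSRNOG00000054418 differed by -1.41 in the amygdala (SE 0.69, edgeR adjusted p = 0.622). Low-responder amygdala libraries 1 (9.01 CPM) and 4 (10.3 CPM) carried that difference, while the other 4 held 0.537 to 1.88 CPM, inside the span of the high-responder libraries (0.486 to 2.2 CPM).

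A direct test of the line difference between regions, over all 24 libraries, called 1 of 14977 genes (0.00668%), ENSRNOG00000028041. The log2 line difference in dorsal raphe minus that in amygdala was -4.27 (SE 0.46, adjusted p = 5.24e-05 by edgeR), and -3.73 without low-responder raphe library 5 (adjusted p = 4.68e-06). In the amygdala the lines overlapped, with high-responder libraries at 2.1 to 4.1 CPM and low-responder ones at 1.79 to 5.14 CPM. The low-responder dorsal raphe, at 12.2 CPM and more, thus lay above every other library for this gene, and the high-responder dorsal raphe, at 1.79 CPM or less, at or below the amygdala of both lines. For the other 11 called genes the difference between regions did not pass (edgeR adjusted p of at least 0.777). Before adjustment 4 of these 11 fell under 0.05, against 644 (4.3%) of all genes tested, but the raphe difference that chose them enters this test, so nothing is read from that share.

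**Figure D4:**
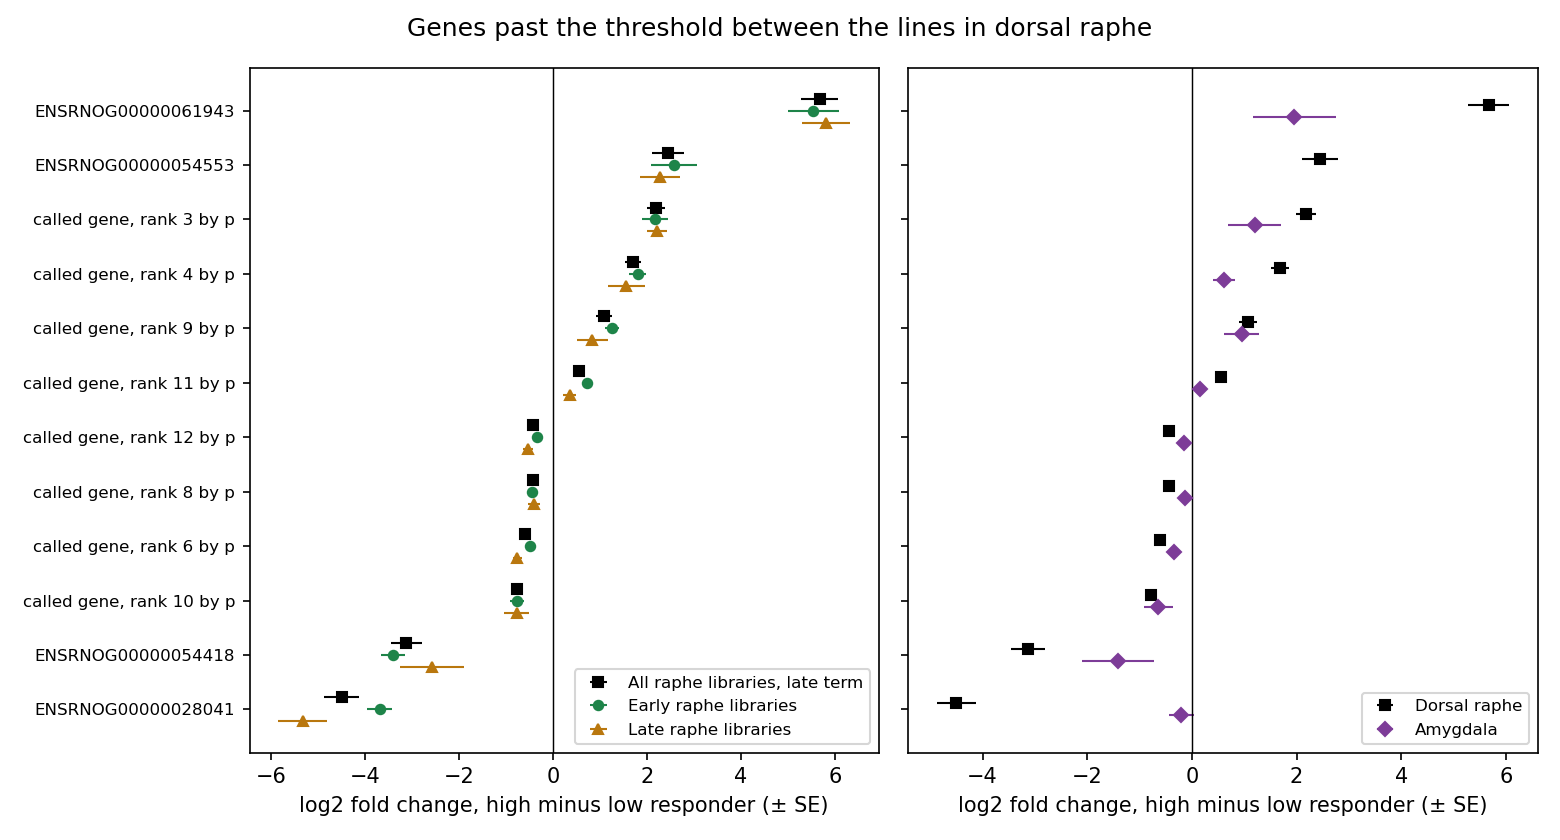
log2 fold change, high minus low responder, with standard errors, for the 12 genes called in dorsal raphe (8 given by rank of p only). The left panel sets all raphe libraries beside early and late ones alone, and the right panel sets dorsal raphe beside amygdala, where 11 of the 12 were tested; the amygdala values lie nearer to 0, which choosing the genes by their raphe difference favours, and that of ENSRNOG00000028041 is -0.20.

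For most genes the spread between libraries bounds the fitted line difference. The bounds take the libraries as independent. They do not cover an effect along the whole numbering, which could not be told apart from the line. The 95% interval lay within a 2-fold difference either way for 13800 of 14390 genes (95.9%) and within 1.5-fold for 11524 (80.1%). The bound depended on the level. At 100 CPM and above, 99.8% of 2201 genes were bounded within 2-fold and 98.2% within 1.5-fold, with a median SE of 0.0675. Between 10 and 100 CPM the shares were 99% and 93.6% of 7777 genes. Between 1 and 10 CPM they were 89.9% and 49.4% of 4199 genes, and below 1 CPM 62.4% and 2.35% of 213 genes, with a median SE of 0.295. Calls came from 3 of these bands. The 1 to 10 CPM band held 7 (0.167%) with a median size of 2.18 on the log2 scale, the 10 to 100 CPM band 3 (0.0386%) with 0.43, and the highest band 2 (0.0909%) with 0.59. The 3 in the 10 to 100 CPM band include ENSRNOG00000028041, at -4.50, which that median does not show. The median SE was 0.195 in the 1 to 10 CPM band and 0.0898 in the 10 to 100 CPM band, so smaller differences could pass at higher levels.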

How the data were processed

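Poly-A libraries followed a Qiagen miRNeasy extraction, per the labels' protocols. Trim Galore, STAR and build rn6 appear in the submitters' processing notes. No version, counting program, annotation release or strand setting is given in the sources used here. The authors deposited raw counts per Ensembl gene ID, 1 table per library, with 0 lines that name no gene. Genes that share reads (copies, overlaps, antisense pairs) could not be separated.

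Counts were tested in R 4.3.3 with the quasi-likelihood test of edgeR 4.0.16 (glmQLFit, glmQLFTest), genes kept by filterByExpr and TMM normalization, on the 12 dorsal raphe libraries with a late term and a line term. The amygdala was fitted likewise, and the region test used 4 groups and a late term per region. The threshold was a Benjamini-Hochberg adjusted p of 0.05. Positive log2 differences mean a higher high-responder level. SE is the log2 fold change over the square root of F, and intervals are approximate. CPM used TMM factors. Components used log2 CPM (prior count 2). Fits were tested on simulated data. Duplicate libraries were looked for among raphe libraries of the same line by chi-square over genes. The closest pair gave 4.01 per degree of freedom, so no such pair looked like the same library sequenced again. Separate libraries made from the same animal or RNA could not be detected this way. Pairs across lines or regions are not covered.

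The comparison, gene lists and rules were chosen with earlier results of these data known. The gene and marker lists needed symbols and could not be applied. Genes were named by size of log2 fold change among those past the threshold with at least 1 CPM in the higher line; as IDs carry no symbols, at most 2 per direction are printed. Alternatives were DESeq2 1.42.0, limma 3.58.1 voom, other scalings and filters, a replicate block, all 24 libraries, early or late libraries alone and each library left out; the fit with a surrogate variable (sva 3.50.0), the fit without both libraries that stand apart and the refits of components were added after seeing the data.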

Additional observations from a re-analysis of the deposited data

Results flagged for a closer look

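A gap test for 1 library lying apart was run on 32 sets of 6 values. It marked 2 sets, and chance marks about 1 in 20, or 1.6 sets. In high-responder dorsal raphe, library 1 had a summed level of 1328 CPM over the 72 IDs enriched in dorsal raphe over amygdala, against at least 2254 CPM in the other 5. In low-responder dorsal raphe, ENSRNOG00000028041 stood at 80.3 CPM in library 5, against at most 26.9 CPM in the other 5.

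The line difference of ENSRNOG00000028041 differed between dorsal raphe and amygdala by a log2 value of -4.27 (raphe minus amygdala, SE 0.46, adjusted p = 5.24e-05 by edgeR), tested by an interaction term.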

How the results depend on the processing

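The count of 12 genes called between the lines in dorsal raphe stayed within 1.5 times with RLE factors (12) and library size only (9). The same held with at least 1 CPM in 6 libraries (12), no late term (9) and 1 surrogate variable in its place (10). The count stayed within that bound, at 16, with all 24 libraries (8 of the 12 among them) and early libraries alone (7 of the 12). It was 26 with no filter beyond 1 count, 85 with DESeq2, 114 with limma voom and 0 in late libraries alone; the cause was not tested, except that late libraries alone hold 5 samples. It ran from 6 to 18 when 1 library was left out. With a replicate block on the equal numbers it was 7 (5 of the 12 among them). The labels do not say that equal numbers mark a shared litter, batch or day. The deviations of libraries with the same number correlated at -0.55 to 0.69. These values are few and vary in sign, so they cannot settle whether the numbers pair the samples. ENSRNOG00000061943, ENSRNOG00000028041 and ENSRNOG00000054418 failed the threshold only in late libraries alone (edgeR adjusted p of 0.129, 0.129 and 1). ENSRNOG00000054553 failed there (adjusted p = 1), in early libraries alone (0.228) and with the replicate block (0.156). The line by region test called 1 gene in each alternative run. The interaction with late numbers called 0 to 6 genes when 1 library was left out. The line difference on the second component was 20.5 to 24.8 in its refits (exact p of 0.00216 to 0.013). Below 1 CPM depth limits the bounds given.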

Other observations

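An all-or-none pattern was looked for in dorsal raphe over 32662 IDs. It asked for at least 10 counts in each of the 6 libraries of one line and at most 3 in each of the 6 of the other. It was shown by 1 ID with the counts in high-responder libraries and by 0 IDs with them in low-responder libraries. The former is ENSRNOG00000061943, named above. In the amygdala this ID held 89 and 48 counts in low-responder libraries 1 and 6, and at most 2 in the other low-responder libraries.

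A set of IDs more than 16-fold higher in amygdala than in dorsal raphe numbered 80, of which 34 had enough counts to be tested in dorsal raphe. None of the 34 was called between the lines with edgeR, against 12 (0.0834%) of the 14390 genes tested. Before adjustment 5 of the 34 had a p under 0.05 (14.7%, against 8.54% of all genes tested), 4 higher and 1 lower in high-responder rats. Their median log2 difference was 0.22, or 0.20 without high-responder library 1, against -0.01 over all genes. An ID could enter the test through enough counts in 1 line alone, so nothing is read from this share or this median. The summed level of the 80 was 267 to 414 CPM in high-responder and 212 to 351 CPM in low-responder dorsal raphe (exact permutation p = 0.0671, two-sided, 6 libraries a line). High-responder library 6 held the highest value.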
